A study of Mus musculus with 6 samples.

Results

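Ephrins, semaphorins, Slits and netrins, with their Eph, plexin, neuropilin, Robo and Unc5 receptors, were followed in HC11 cells cultured with or without BMP7. The genes were chosen by name, as every numbered ephrin (*Efna*, *Efnb*), Eph receptor (*Epha*, *Ephb*), class 3 to 7 semaphorin (*Sema3* to *Sema7*), plexin (*Plxn*), neuropilin (*Nrp*), Slit, Robo, netrin (*Ntn*) and *Unc5* gene among the counted genes. This gave 68 genes of 55809, 35 of them ligands and 33 receptors. The rule itself uses names only. HC11 is an established line of mouse mammary epithelial cells, used in the study as a luminal model of the response to BMP7, a secreted bone morphogenetic protein that signals through SMAD1/5. Poly(A) RNA was read in 3 libraries of cells kept in medium without BMP7 (Ctrl replicates 1, 2 and 3) and 3 libraries of cells in medium with BMP7 protein (BMP7 replicates 1, 3 and 4, as their columns are numbered). All 6 libraries came from the same cell line, and no gene was modified in either group. The study's methods describe starved HC11 cells stimulated for a short or a longer time and do not name the time used for sequencing. Nothing states whether the 3 libraries of a group came from separate cultures, so p-values measure the spread between these libraries, which may be technical.

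The libraries held between 14607938 and 23748970 counted fragments, and the 68 genes took 0.307% to 0.325% of them. The BMP target genes *Id1*, *Id2* and *Id3*, a check of the treatment, rose from 7.90, 58.5 and 1.87 to 154, 412 and 149 CPM (counts scaled to the TMM-adjusted library size, group means). The cells had high levels of the basal keratins *Krt5* and *Krt14* (1203 and 1985 RPKM in Ctrl, that is CPM per kb of exon) and lower ones of the luminal keratins *Krt8* and *Krt18* (32.3 and 34.4 RPKM), and *Krt19* was near 0 (0.0528 RPKM), although the study treats the line as luminal. BMP7 replicates 3 and 4 stood apart from BMP7 replicate 1 in genes of other cell types. The summed level of 6 adipocyte genes was 9.59 to 16.5 CPM in Ctrl, 18.9 CPM in BMP7 replicate 1 and 58.2 and 52.5 CPM in BMP7 replicates 3 and 4, and that of 6 macrophage genes was 43.7 to 47.4, 45.4, 22.9 and 21.4 CPM. Of the adipocyte genes 5 were tested, and all 5 (*Fabp4*, *Adipoq*, *Car3*, *Plin1* and *Cidec*) were called higher with BMP7. *Adipoq* and *Car3* still overlapped between the groups. Of the macrophage genes 5 were tested, and *Lyz2* and *Ptprc* were lower with BMP7. *Cd68* went the other way, at 10.9 to 11.6 CPM in Ctrl and 12.4 to 15.6 CPM with BMP7, and was not called. Of 6 fibroblast genes 5 were tested, and *Dcn* (1.18 to 3.70 CPM, group means) and *Col3a1* were higher with BMP7 and *Col1a1* lower. *Dcn* was at 1.74 CPM in BMP7 replicate 1 and at 4.44 and 4.90 CPM in BMP7 replicates 3 and 4. The summed fibroblast genes overlapped between the groups (113 to 124 CPM in Ctrl and 98.6 to 114 CPM with BMP7), as did the neuronal genes (171 to 187 and 159 to 180.0 CPM), none of which was called. The calls were therefore also made without BMP7 replicates 3 and 4. In bulk RNA, fewer cells of a type and less RNA per cell cannot be told apart.

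These families carry signals between neighbouring cells and were first known for steering axons. Ephrins are held on the cell surface, ephrin-A by a lipid anchor and ephrin-B by a membrane-spanning stretch, and bind Eph receptor tyrosine kinases on the next cell, with signals running into both cells. Semaphorins are secreted (class 3) or bound to the membrane (classes 4 to 7) and act through plexins, which regulate small GTPases in the cell, and class 3 semaphorins mostly need a neuropilin as co-receptor. Slits bind Robo receptors, and netrins bind Unc5 receptors and the Dcc and neogenin receptors. In the mammary gland, EphA2, EphB4, Slit2 with Robo1, and netrin-1 with neogenin are known for roles in branching or in adhesion between the epithelial layers.

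Of the 68 genes, 47 had enough counts to be tested by edgeR, and 21 did not pass its expression filter and were not tested. These 21 had at most 13 counts in any library. With BMP7, 7 of the 47 rose and 4 fell by edgeR's quasi-likelihood test, at a Benjamini-Hochberg adjusted p of 0.05 over 15733 genes and a fold change of 1.2. Those that rose were *Plxnd1*, *Efnb2*, *Efna3*, *Epha7*, *Unc5b*, *Efna1* and *Nrp2*, and those that fell were *Sema4d*, *Sema5a*, *Plxna1* and *Sema4c*. These are 14.9% and 8.51% of the tested guidance genes, against a background of 5.99% of all tested genes higher and 5.38% lower (11.4% in either direction, against 23.4% here). Restricted to genes that averaged 1 CPM or more, 11 of 43 guidance genes were called (25.6%), against 12.1% of all such genes (6.29% higher and 5.84% lower). These differences in share were not tested. The median log2 fold change of the 47 genes was 0.02, beside -0.0062 over all tested genes, and 36 of the 47 were not called. Without any overlap of the groups, 10 of the 47 genes had their BMP7 values above Ctrl and 9 below, while 14.8% of all tested genes lay above and 15.1% below (29.8% in either direction).

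**Figure D1:**
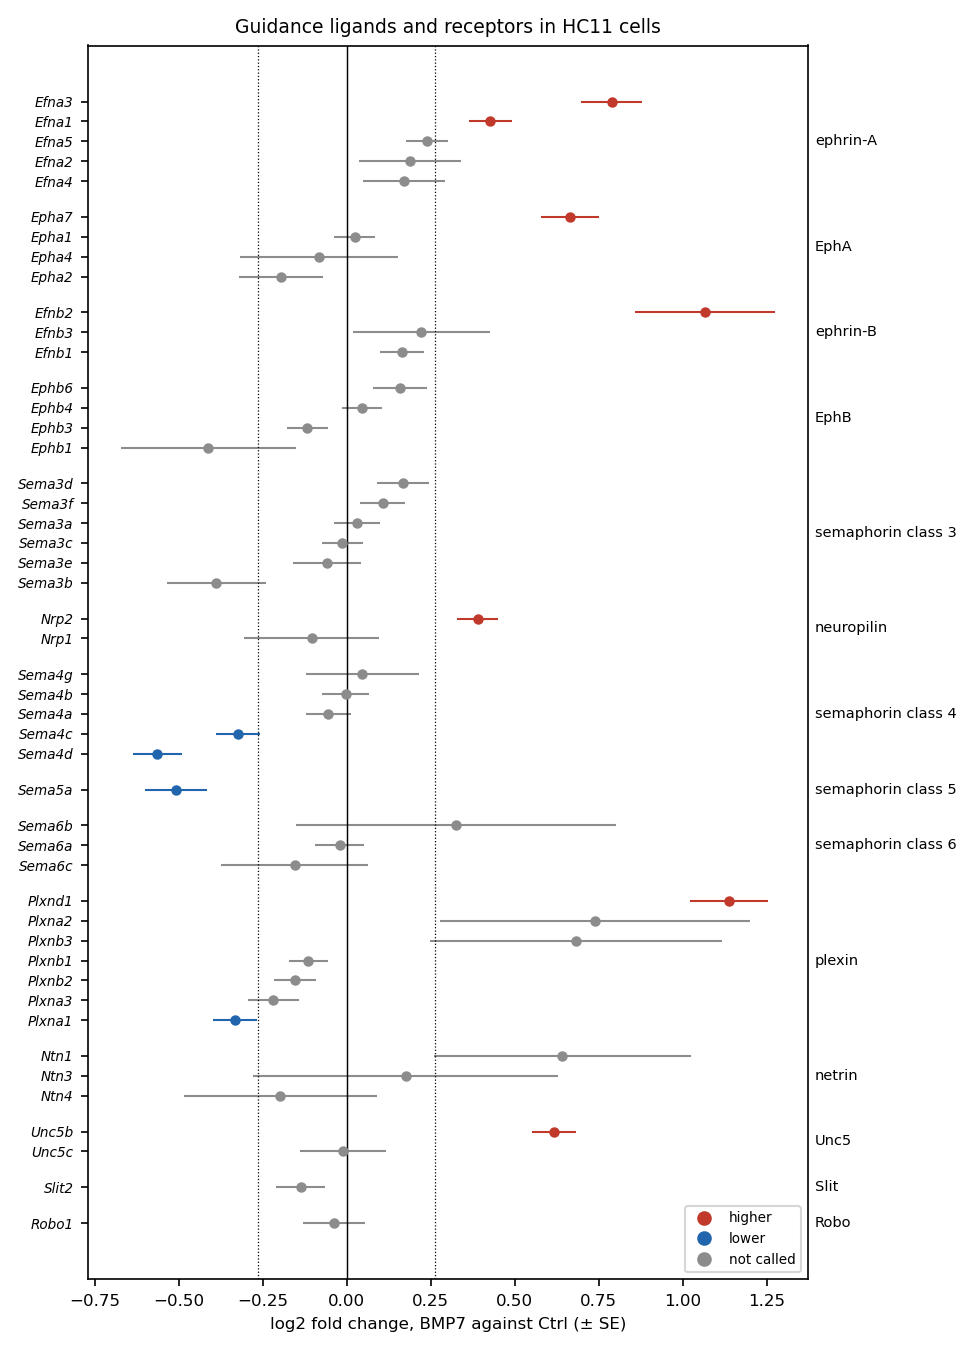
Log2 fold change of BMP7 against Ctrl (x axis) for the 47 tested guidance genes, grouped by family, with points for the estimate, bars for ± SE, and dotted lines at a fold change of 1.2. All 8 ephrins sit to the right of 0, from 0.16 to 1.07, while of the semaphorins none is called higher and *Sema4c*, *Sema4d* and *Sema5a* are called lower.

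By family, ephrins had 3 of 8 genes higher and 0 lower. All 8 ephrins had a positive log2 fold change (0.16 to 1.07), beside a median of -0.0062 over all tested genes. Of the 8, 4 overlapped between the groups, and the intervals of *Efna2*, *Efna4* and *Efnb3* included 0. The sign stayed positive under each scaling, filter, test and left-out library tried, all drawn from the same 6 libraries. Eph receptors had 1 of 8 tested genes higher and 0 lower. Of the semaphorins, 0 of 15 tested genes rose and 3 fell. Among the plexins 1 of 7 tested genes was higher and 1 lower, 1 of 2 neuropilins and 1 of 2 tested Unc5 receptors was higher, and none of the 3 tested netrins, the 1 tested Slit (*Slit2*) and the 1 tested Robo (*Robo1*) was called. At an unadjusted p under 0.05 in edgeR, 5 ephrins and 1 Eph receptor were higher and 0 of either lower, 1 semaphorin (*Sema3d*) was higher and 4 were lower, and 0 of the 5 tested netrin, Slit and Robo genes was on either side. Of the plexins, *Plxnd1* was higher at that threshold and *Plxna1*, *Plxna3* and *Plxnb2* were lower. Over all tested genes, 13.1% were higher and 13.1% lower at it. Without overlap of the groups, 2 of the 7 tested plexins lay above Ctrl and 4 below, beside 14.8% and 15.1% of all tested genes. Each of the 11 called genes was also called by DESeq2, which called no further guidance gene, and in each of the 6 fits that left out a library.

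**Figure D2:**
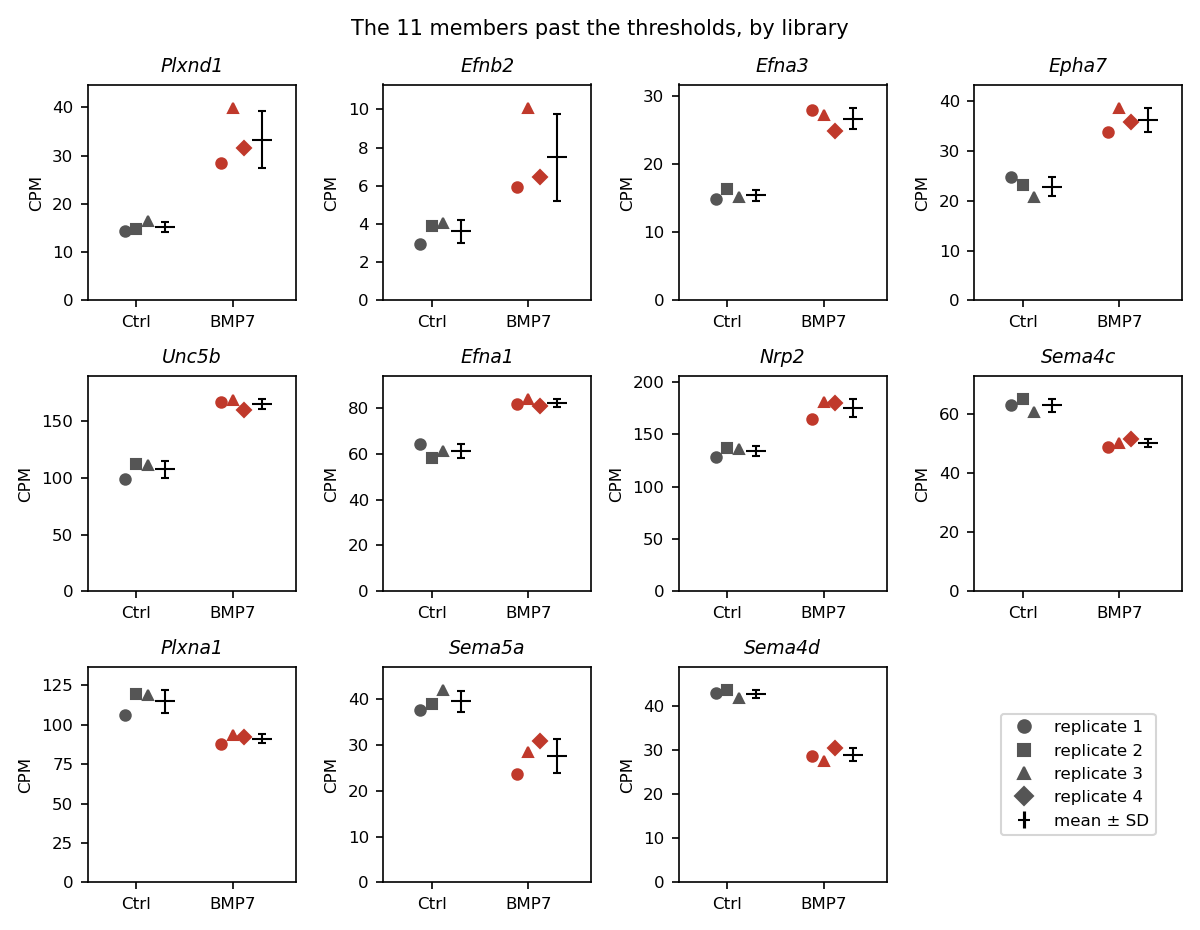
CPM in each library (y axis, from 0) for the 11 called guidance genes, with grey symbols for Ctrl, red symbols for BMP7, the symbol shape giving the replicate number, and a dash with a bar for the mean ± SD of 3 libraries. The groups do not overlap in any panel. BMP7 replicate 3 is the highest library for every gene that rose except *Efna3*, by most for *Plxnd1* (40.0 CPM) and *Efnb2* (10.1 CPM).

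Promoters of 4 of the genes that rose are shown first, since 3 of them hold the GC-rich motif known to be bound by Smad1/5 and the gene with the largest rise does not. The sequences are the 250 bases upstream of a RefSeq transcription start (GRCm38.p6, read 5′ to 3′ along the gene's own, minus strand): chr3:89279646-89279895 for *Efna1*, chr3:89321769-89322018 for *Efna3*, chr8:8661243-8661492 for *Efnb2* and chr6:115995006-115995255 for *Plxnd1*. Capitals mark GGCGCC.
Efna1: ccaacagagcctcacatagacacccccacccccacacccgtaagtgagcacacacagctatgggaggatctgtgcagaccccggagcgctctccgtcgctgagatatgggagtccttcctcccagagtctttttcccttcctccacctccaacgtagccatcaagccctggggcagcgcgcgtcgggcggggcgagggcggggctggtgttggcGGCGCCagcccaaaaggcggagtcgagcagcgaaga
Efna3: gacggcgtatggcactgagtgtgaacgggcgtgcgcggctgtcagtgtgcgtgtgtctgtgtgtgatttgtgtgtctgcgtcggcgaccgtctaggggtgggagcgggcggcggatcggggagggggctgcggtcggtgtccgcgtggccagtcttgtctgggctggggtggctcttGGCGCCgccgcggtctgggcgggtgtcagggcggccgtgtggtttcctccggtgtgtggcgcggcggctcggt
Efnb2: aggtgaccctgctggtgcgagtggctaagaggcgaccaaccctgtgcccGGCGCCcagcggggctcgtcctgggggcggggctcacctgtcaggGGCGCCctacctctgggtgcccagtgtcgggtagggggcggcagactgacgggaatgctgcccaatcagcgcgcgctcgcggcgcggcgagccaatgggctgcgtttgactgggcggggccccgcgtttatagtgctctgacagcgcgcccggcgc
Plxnd1: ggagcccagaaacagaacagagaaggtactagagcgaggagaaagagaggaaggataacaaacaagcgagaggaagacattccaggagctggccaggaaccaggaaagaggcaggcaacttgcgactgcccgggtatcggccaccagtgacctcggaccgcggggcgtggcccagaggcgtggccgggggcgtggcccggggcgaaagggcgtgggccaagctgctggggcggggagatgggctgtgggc

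GGCGCC, which reads the same on both strands, started at position -36 before the start of *Efna1*, at -73 for *Efna3*, and at -201 and -156 for *Efnb2*, and did not occur in the window of *Plxnd1*. A second RefSeq start of *Efna1* and of *Efna3* had no match. Of the 59 guidance genes with a window (250 bases before to 50 after the start), 16 had a match in at least 1 window. These were 3 of the 7 genes that rose, 0 of the 3 that fell and have a window, and 11 of the 31 tested genes that were not called, so the motif was also common in genes without a call. Over all RefSeq windows 11.9% held it, and 13.4% of genes did. The shorter Smad-binding element GTCT, searched on both strands, was in 88.0% of all windows. A match is a string of letters and not a measured binding site.

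Of the 5 ephrin-A ligands, 2 rose with BMP7 and 0 fell. *Efna3* (chr3:89221206-89230272, minus strand, mm39 as in the deposited counts) encodes a lipid-anchored ligand of EphA receptors and was at 14.8, 16.4 and 15.2 CPM in Ctrl replicates 1, 2 and 3 and 27.9, 27.3 and 24.9 CPM in BMP7 replicates 1, 3 and 4. The 3 BMP7 libraries lay close together and far above every Ctrl library. BMP7 against Ctrl gave a log2 fold change of 0.79 (SE 0.09, a fold of 1.73; edgeR quasi-likelihood test, adjusted p = 1.31e-05). Of its exon bases, 14.1% are shared with the antisense gene *Gm15998*, which had 17 counts over all libraries against 2418 for *Efna3*.

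*Efna1* (chr3:89179040-89188449, minus strand), the ligand best known for activating EphA2, was the most abundant ephrin and rose from 33.3 ± 1.68 to 44.8 ± 0.952 RPKM (mean ± SD, n = 3). Its CPM values were 64.0, 57.9 and 61.1 in Ctrl and 81.7, 84.0 and 80.5 with BMP7, with no overlap. This is a log2 fold change of 0.43 (SE 0.06, edgeR adjusted p = 1.88e-04). The study also picked *Efna1* from its HC11 sequencing as a candidate BMP7 target, but its qPCR in luminal cells found no increase. *Efna1*, *Efna3* and *Efna4* lie side by side on chromosome 3, with gaps of 32.8 and 10.4 kb. The third gene of this cluster, *Efna4*, was not called (0.17, 95% interval -0.09 to 0.43), so the neighbours did not all pass the test.

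*Efna5* was nearly as abundant as *Efna1* in Ctrl (31.5 ± 1.67 RPKM) and reached 37.2 ± 1.54 RPKM with BMP7. Its libraries, 135, 122 and 124 CPM in Ctrl and 143, 154 and 153 CPM with BMP7, did not overlap, and its log2 fold change of 0.24 passed edgeR's adjusted p (0.0164) but not the fold of 1.2. It passed both thresholds without Ctrl replicate 1 (log2 fold change 0.28) or without BMP7 replicate 1 (0.27). *Efna2*, with 2.94 RPKM in Ctrl, was not called either (0.19, interval -0.14 to 0.51). Summed over the 5 ephrin-A genes, the level per length was 81.2 ± 3.34 RPKM in Ctrl and 104 ± 1.67 RPKM with BMP7, of which *Efna1* made 41.1% and 43.0%.

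On the receptor side, *Epha7* (chr4:28813131-28967499, plus strand), a receptor tyrosine kinase for ephrin-A ligands, also rose. It was at 24.7, 23.1 and 20.8 CPM in Ctrl and 33.9, 38.7 and 35.9 CPM with BMP7, again without overlap. Its log2 fold change was 0.66 (SE 0.09, a fold of 1.59; edgeR adjusted p = 4.89e-05). *Epha7* remained a minor receptor, at 2.31 RPKM in Ctrl and 3.66 with BMP7. The main EphA gene was *Epha1*, at 31.5 ± 0.831 and 32.0 ± 1.60 RPKM, and its log2 fold change was 0.02 with an interval of -0.10 to 0.15. *Epha1* shares 6.01% of its exon bases with *Zyx* on the other strand, which had 23960 counts over all libraries. *Epha2*, the EphA receptor linked to mammary branching, was at 4.19 RPKM in Ctrl and 3.65 with BMP7 (log2 fold change -0.20, interval -0.46 to 0.07), and *Epha4* at 0.313 and 0.294 RPKM. The summed EphA level was 38.4 ± 0.215 RPKM in Ctrl and 39.7 ± 1.15 with BMP7, a small difference beside that of the summed ligands. *Epha3*, *Epha5*, *Epha6*, *Epha8* and *Epha10* were not tested, with at most 8 counts in a library and 0 for *Epha5* throughout.

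Among ephrin-B ligands *Efnb2* rose. *Efnb2* (chr8:8667434-8711242, minus strand), the membrane-spanning partner of EphB4 best known from arteries, was at 2.94, 3.88 and 4.06 CPM in Ctrl and 5.92, 10.1 and 6.44 CPM with BMP7. All BMP7 libraries were higher, but BMP7 replicate 3 was well above the other two. *Efnb2* had a log2 fold change of 1.07 (SE 0.21, a fold of 2.09; edgeR adjusted p = 0.00222), and over the alternatives the adjusted p ran from 4.07e-08 to 0.107. Without BMP7 replicates 3 and 4 the call was lost (log2 fold change 0.71, edgeR adjusted p = 0.107), in a fit where BMP7 replicate 1 stood alone and was assumed to vary like the Ctrl libraries. *Efnb2* was a low gene, at 0.529 ± 0.0880 RPKM in Ctrl and 1.09 ± 0.331 RPKM with BMP7. The main ephrin-B gene was *Efnb1*, with 26.0 ± 0.945 and 29.1 ± 2.05 RPKM, whose libraries overlapped (88.2, 87.5 and 93.5 and 104, 105 and 92.5 CPM) and whose log2 fold change of 0.16 was not called (edgeR adjusted p = 0.119). *Efnb3* was at 0.964 and 1.13 RPKM and was not called (0.22, interval -0.21 to 0.65).

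The receptor of ephrin-B2, *Ephb4*, was the most abundant of all 68 genes per length. It was at 393, 365 and 398 CPM in Ctrl and 398, 393 and 402 CPM with BMP7, or 83.0 ± 3.88 and 85.7 ± 0.951 RPKM. The groups overlapped, and the log2 fold change of 0.05 had an interval of -0.08 to 0.17. *Ephb6*, whose kinase is inactive, was at 22.1 and 24.7 RPKM, and *Ephb3* at 17.2 and 15.8 RPKM. These neighbours in the order went opposite ways without passing the test, *Ephb6* with all BMP7 libraries above Ctrl (0.16, edgeR adjusted p = 0.229) and *Ephb3* with all below (-0.12, adjusted p = 0.233). *Ephb1* was at 0.512 and 0.389 RPKM with a wide interval (-0.96 to 0.14), and *Ephb2* was not tested, with at most 12 counts in a library. The summed EphB level was 123 ± 7.21 and 127 ± 2.17 RPKM, against 27.5 ± 0.976 and 31.4 ± 2.08 RPKM for the summed ephrin-B ligands.

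**Figure D3:**
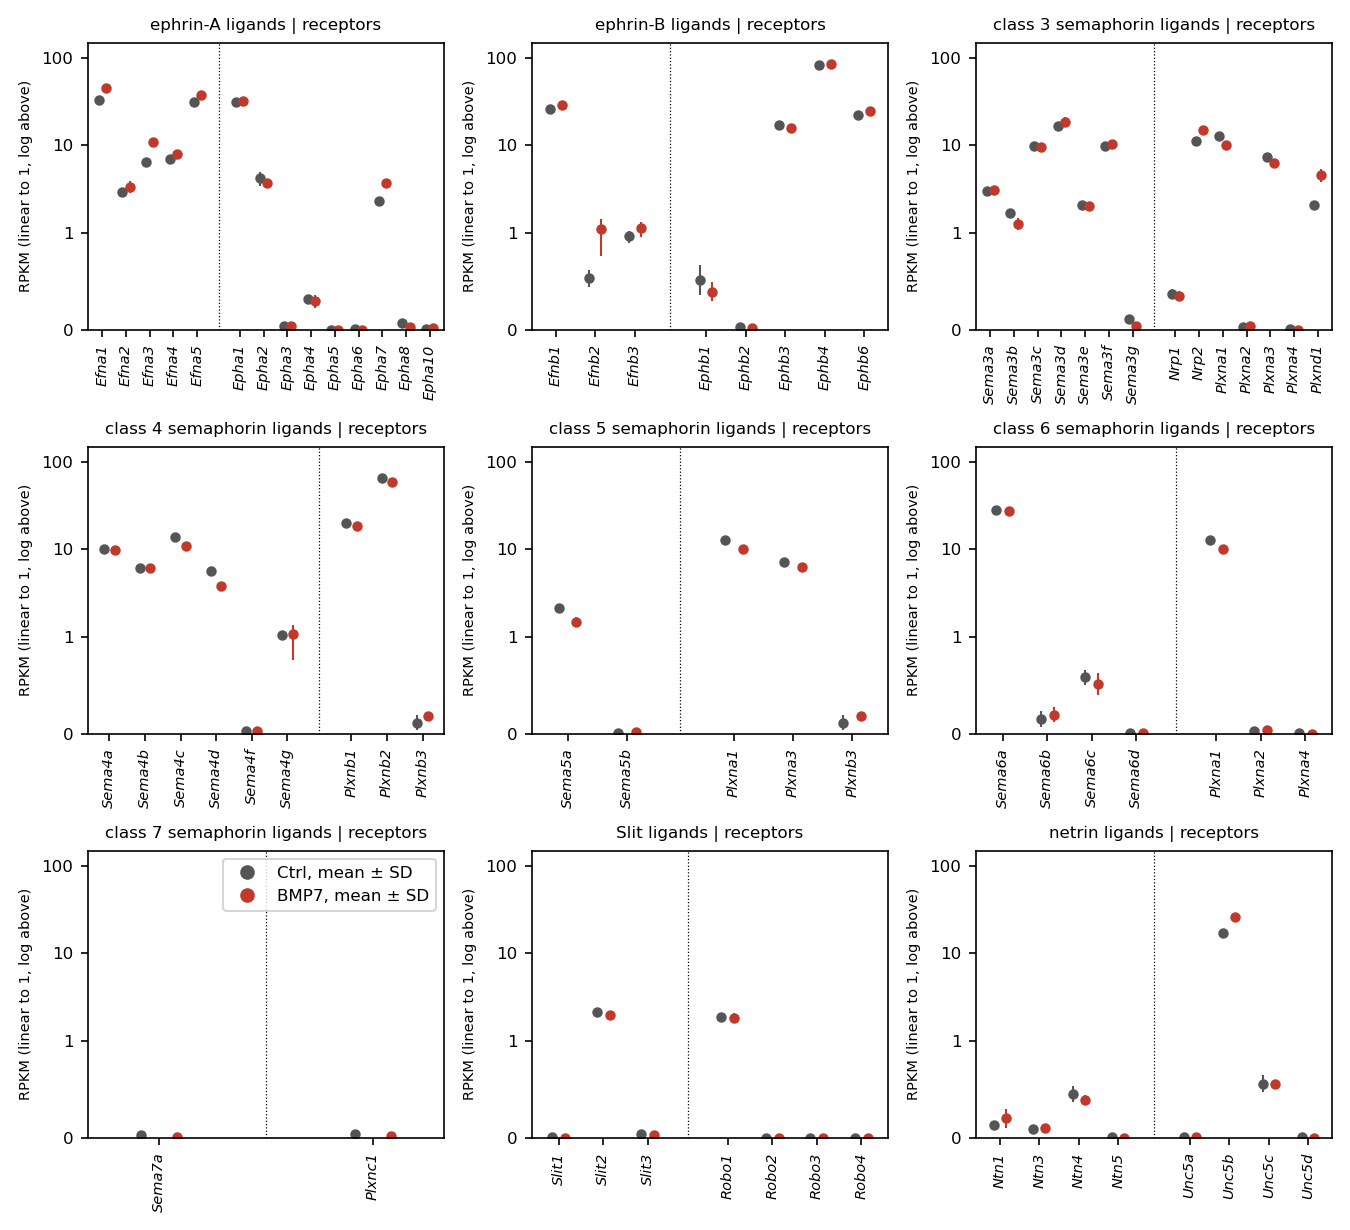
Mean RPKM (y axis, linear from 0 to 1 and logarithmic above, bars ± SD of 3 libraries) of each ligand and its receptors, left and right of the dotted line in each panel, with Ctrl in grey and BMP7 in red, and receptors of several classes drawn more than once. *Ephb4* and *Plxnb2* are the highest genes (83.0 and 65.6 RPKM in Ctrl), and *Sema7a* and *Plxnc1* are near 0.

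Class 3 semaphorins, the secreted members, did not pass the test in either direction (0 of 6 tested). *Sema3d* was the most abundant, at 16.6 RPKM in Ctrl and 18.6 with BMP7, followed by *Sema3c* (9.76 and 9.67) and *Sema3f* (9.71 and 10.5), whose Ctrl levels lay within their spread of each other. *Sema3d* overlapped between the groups (144, 142 and 142 CPM in Ctrl and 138, 163 and 179 CPM with BMP7), with BMP7 replicate 1 the lowest of all and BMP7 replicate 4 the highest. *Sema3b* was the only class 3 gene without overlap, at 8.38, 7.67 and 7.92 CPM in Ctrl and 4.95, 6.53 and 6.67 CPM with BMP7, and its log2 fold change of -0.39 did not pass (edgeR adjusted p = 0.0976). *Sema3a* (log2 fold change 0.03), *Sema3c* (-0.01), *Sema3e* (-0.06) and *Sema3f* (0.11) lay near 0. *Sema3g* was not tested, with 2 to 13 counts.

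Receptors for these ligands did change. *Plxnd1* (chr6:115931772-115971966, minus strand), a plexin that binds Sema3E without a neuropilin and is best known from blood vessels, had the largest rise of the 47 genes. It was at 14.4, 14.8 and 16.5 CPM in Ctrl and 28.4, 40.0 and 31.6 CPM with BMP7. Even the lowest BMP7 library, replicate 1, was far above the highest Ctrl library, and replicate 3 was the highest. Its log2 fold change was 1.14 (SE 0.12, a fold of 2.20; edgeR adjusted p = 3.04e-06), and it was 0.90 without BMP7 replicates 3 and 4 (adjusted p = 3.59e-04). Its level per length went from 2.09 ± 0.151 to 4.56 ± 0.816 RPKM, beside 2.08 ± 0.136 and 1.99 ± 0.208 RPKM for its ligand *Sema3e*, whose log2 fold change had an interval of -0.27 to 0.16.

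*Nrp2* (chr1:62742444-62857854, plus strand), a co-receptor for Sema3C and Sema3F that also binds VEGF-C, rose as well. It was at 128, 137 and 136 CPM in Ctrl and 165, 181 and 179.5 CPM with BMP7, with BMP7 replicate 1 nearest to Ctrl and no overlap. This rise was 0.39 on the log2 scale (SE 0.06; edgeR adjusted p = 3.09e-04), and 0.30 without BMP7 replicates 3 and 4 (adjusted p = 0.0209). Nearly all neuropilin RNA was *Nrp2*, at 11.3 RPKM in Ctrl and 14.8 with BMP7. *Nrp1*, the co-receptor for Sema3A, was at 0.372 and 0.345 RPKM and was not called (log2 fold change -0.10, interval -0.53 to 0.32).

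*Plxna1* (chr6:89293296-89339602, minus strand), which pairs with neuropilins and also binds class 6 semaphorins, fell. It was at 106, 119 and 119 CPM in Ctrl and 88.0, 93.2 and 92.3 CPM with BMP7, every BMP7 library below every Ctrl library. Its log2 fold change was -0.33 (SE 0.06; edgeR adjusted p = 0.00198). Its exons share 10.7% of their bases with *Gm26811*, which had 88 counts over all libraries. The related *Plxna3* also had all BMP7 libraries below Ctrl (58.6, 56.3 and 56.3 and 43.4, 50.8 and 52.6 CPM) but was not called (-0.22, edgeR adjusted p = 0.0666). It passed without BMP7 replicate 4 (log2 fold change -0.27, adjusted p = 0.0352), and its adjusted p over the alternatives ran from 0.0156 to 0.201. Thus within the class 3 receptors *Plxnd1* and *Nrp2* rose and *Plxna1* fell, with RPKM values of 4.56, 14.8 and 10.1 with BMP7. *Plxna2* had few counts (5, 11 and 10 in Ctrl and 8, 13 and 18 with BMP7), and *Plxna4* was not tested.

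Among class 4 semaphorins, which are membrane proteins, 2 of 5 tested genes fell. *Sema4d* (chr13:51839565-51947783, minus strand), the ligand of plexin-B1, was at 43.0, 43.6 and 41.8 CPM in Ctrl and 28.7, 27.6 and 30.5 CPM with BMP7. Both groups were tight and far apart. The log2 fold change was -0.56 (SE 0.07, a fold of 1.48 down; edgeR adjusted p = 4.36e-05). *Sema4c* (chr1:36587720-36597430, minus strand), a ligand of plexin-B2, was at 62.9, 65.2 and 60.6 CPM in Ctrl and 48.8, 50.2 and 51.7 CPM with BMP7 and fell by 0.32 on the log2 scale (SE 0.07; edgeR adjusted p = 0.00265). It shares 7.27% of its exon bases with *D430040D24Rik*, which had 485 counts over all libraries against 6642 for *Sema4c*.

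The other class 4 genes stayed close to Ctrl. *Sema4a* was at 10.1 and 9.72 RPKM (log2 fold change -0.05) and *Sema4b* at 6.16 and 6.15 RPKM (-0.0026), with intervals of -0.20 to 0.09 and -0.15 to 0.15. *Sema4g*, at 8.96, 9.59 and 8.85 CPM in Ctrl and 6.34, 11.5 and 9.97 CPM with BMP7, was split within the BMP7 group, with replicate 1 below and replicate 3 above all Ctrl libraries. The class 4 sum was below the Ctrl range in every BMP7 library, at 36.6 ± 1.18 RPKM in Ctrl and 31.7 ± 0.470 RPKM with BMP7. *Sema4f* was not tested.

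The plexin-B receptors of these ligands were abundant and were not called. *Plxnb2* was the second gene of the set per length, at 65.6 ± 1.03 RPKM in Ctrl and 59.0 ± 3.74 with BMP7, and *Plxnb1* was at 19.9 ± 0.414 and 18.4 ± 0.774 RPKM. For both, all BMP7 libraries lay below all Ctrl libraries: *Plxnb2* had 509, 513 and 498 CPM against 458, 426 and 483 CPM, and *Plxnb1* had 192, 187 and 195 CPM against 168, 182 and 179 CPM. The log2 fold changes were small, -0.15 for *Plxnb2* (interval -0.29 to -0.02, edgeR adjusted p = 0.126) and -0.11 for *Plxnb1* (interval -0.24 to 0.01, adjusted p = 0.229). Each interval excludes a fall as large as that of *Sema4d*. *Plxnb3* had few counts (13, 6 and 26 in Ctrl and 20, 23 and 21 with BMP7).

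*Sema5a* (chr15:32244956-32696487, plus strand), a membrane semaphorin with thrombospondin repeats, also fell. It was at 37.6, 38.9 and 42.1 CPM in Ctrl and 23.6, 28.5 and 30.8 CPM with BMP7, lowest in BMP7 replicate 1 and without overlap. The log2 fold change was -0.51 (SE 0.09, a fold of 1.42 down; edgeR adjusted p = 0.00111), and -0.74 without BMP7 replicates 3 and 4. In contrast, *Sema6a*, the most abundant semaphorin at 28.0 ± 2.13 RPKM in Ctrl, was at 27.6 ± 2.45 RPKM with BMP7 (log2 fold change -0.02, interval -0.18 to 0.14). Over all semaphorins the sum was 110 ± 2.01 RPKM in Ctrl and 107 ± 3.36 RPKM with BMP7, with overlapping libraries. *Sema6c* was not called (-0.15), *Sema6b* had 5 to 17 counts per library, and *Sema5b*, *Sema6d*, *Sema7a* and its receptor *Plxnc1* were not tested.

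Netrin ligands were scarce while *Unc5b*, a netrin receptor, was abundant and rose. *Unc5b* (chr10:60598372-60667360, minus strand) was at 98.5, 112 and 111 CPM in Ctrl and 167, 168 and 159 CPM with BMP7. The 3 BMP7 libraries lay within a narrow band well above Ctrl. This gave a log2 fold change of 0.62 (SE 0.06, a fold of 1.53; edgeR adjusted p = 4.44e-06), and 0.64 without BMP7 replicates 3 and 4. Per length, *Unc5b* went from 17.2 ± 1.23 to 26.3 ± 0.760 RPKM and made 96.8% of the summed Unc5 level in Ctrl and 97.9% with BMP7. *Unc5c* was at 0.558 and 0.555 RPKM (log2 fold change -0.01, interval -0.28 to 0.26), and *Unc5a* and *Unc5d* were not tested, with at most 2 counts in a library.

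The netrins summed to 0.670 ± 0.111 RPKM in Ctrl and 0.692 ± 0.0695 RPKM with BMP7. *Ntn1*, the ligand known from mammary end buds, had 19, 15 and 15 counts in Ctrl and 14, 19 and 35 with BMP7, and a difference was not detectable at this depth (log2 fold change 0.64, interval -0.17 to 1.46). *Ntn4* (-0.20) and *Ntn3* (0.17) overlapped between the groups too, and *Ntn5* was not tested. Of the other netrin-1 receptors, neogenin (*Neo1*) was at 299.7, 279 and 291 CPM in Ctrl and 319, 359 and 359 CPM with BMP7, and its log2 fold change of 0.25 passed edgeR's adjusted p (0.0140) but not the fold of 1.2. *Dcc* was not tested.

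Slit2 and Robo1, a ligand and receptor pair known from mammary branching, were the only Slit and Robo genes tested. *Slit2* was at 55.1, 57.3 and 52.1 CPM in Ctrl and 48.4, 47.5 and 53.7 CPM with BMP7, with a log2 fold change of -0.14 (interval -0.29 to 0.01). *Robo1* was at 31.8, 30.6 and 31.0 CPM in Ctrl and 25.6, 32.0 and 33.0 CPM with BMP7, with a log2 fold change of -0.04 (interval -0.23 to 0.16). Neither was called, and both overlapped between the groups. Per length, *Slit2* was at 2.16 ± 0.103 RPKM and *Robo1* at 1.88 ± 0.0362 RPKM in Ctrl. *Slit1* and *Slit3* had at most 8 counts in a library, *Robo2* and *Robo4* at most 1, and *Robo3* had 0 in all 6 libraries.

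Several of the genes that rose (*Plxnd1*, *Efnb2*, *Unc5b*, *Nrp2*) are best known from endothelium, so endothelial markers were read beside them. The summed level of 6 endothelial markers was 13.3 to 15.9 CPM in Ctrl and 24.0 to 26.3 CPM with BMP7, nearly all of it *Pecam1*, the only one of the 6 that could be tested and which rose from 14.4 to 24.6 CPM. *Cdh5*, *Kdr*, *Tek*, *Tie1* and *Emcn* were each at most 0.360 CPM in any library. Of the 9 epithelial markers, 8 were tested, with *Krt14*, *Krt17* and *Trp63* higher and *Krt18*, *Epcam* and *Cdh1* lower, and the summed level was 8279 to 8402 CPM in Ctrl and 8859 to 10287 CPM with BMP7. The part of these markers in the changes of guidance genes was not tested. Without BMP7 replicates 3 and 4, which carried the higher adipocyte and lower macrophage values, 6 guidance genes rose and 5 fell, with *Efnb2* lost and *Plxna3* gained. In that fit BMP7 replicate 1 stood alone, so the calls rest on the spread of the Ctrl libraries. The log2 fold changes in it were 0.86 for *Efna3*, 0.42 for *Efna1*, 0.57 for *Epha7*, -0.57 for *Sema4d*, -0.37 for *Sema4c* and -0.38 for *Plxna1*, close to those with all libraries. Others moved further, to 0.90 from 1.14 for *Plxnd1*, 0.71 from 1.07 for *Efnb2* and -0.74 from -0.51 for *Sema5a*. *Nrp2* was at 0.30, against 0.39 with all libraries.

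Beyond the ligands and receptors, 69 genes of co-receptors and signal transducers of these families were counted, 58 of which were tested. With BMP7 10 rose and 9 fell, which is 32.8% of those tested against the background of 11.4%, with a median log2 fold change of -0.03. The list was written with earlier results of these data known, so its share is not independent of them, and the difference was not tested. By pathway, 6 of 19 tested effectors of Eph and ephrin signals rose and 4 fell, 3 of 20 effectors of plexins and neuropilins rose and 4 fell, 1 of 9 Slit and Robo effectors fell, and 1 of 10 co-receptors and related ligands rose. Both directions occurred among the Eph and among the plexin effectors.

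Among Eph and ephrin effectors, *Kalrn*, a guanine nucleotide exchange factor known downstream of EphB, was at 2.12, 2.31 and 3.03 CPM in Ctrl and 5.92, 5.78 and 5.45 CPM with BMP7 (a fold of 2.29; edgeR adjusted p = 3.34e-04). *Adam10*, the membrane protease that sheds ephrins, was at 339.7, 351 and 321 CPM in Ctrl and 474, 508 and 485 CPM with BMP7 (0.54, SE 0.06; adjusted p = 1.19e-05). The groups were apart for both. *Inppl1*, encoding the EphA2-binding phosphatase SHIP2 (0.53), *Ngef*, encoding ephexin-1, an exchange factor bound to EphA receptors (0.48), and the Rac activator *Tiam1* (0.36) rose too, with *Tiam1* no longer called without BMP7 replicates 3 and 4 (0.28). *Pdzrn3*, a ubiquitin ligase with PDZ domains whose place on the list is less certain, had the largest rise (1.26, SE 0.07; edgeR adjusted p = 1.30e-09). The Rac exchange factors *Vav2* (-0.47) and *Vav3* (-0.29) and the adaptors *Grb7* (-0.37) and *Nck2* (-0.30) fell, so exchange factors for Rac were found on both sides. *Vav2* lost its call without BMP7 replicate 3 (log2 fold change -0.37), and *Vav3* kept its call in 1 of 6 fits that left out a library, the fit without BMP7 replicate 4 (-0.32), and was not called by DESeq2. Without BMP7 replicates 3 and 4, *Grb7* (-0.22), *Vav2* (-0.35) and *Vav3* (-0.29) were not called.

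Among plexin effectors *Mical2*, a monooxygenase that takes actin filaments apart, had the largest fall, from 37.3, 34.9 and 32.6 CPM in Ctrl to 15.8, 17.1 and 18.8 CPM with BMP7 (log2 fold change -1.01, SE 0.09; edgeR adjusted p = 7.21e-07). Its relative *Mical3* was on the other side (0.27), but kept its call in only 3 of 6 fits that left out a library, being lost without Ctrl replicate 1 (0.24), Ctrl replicate 2 or BMP7 replicate 3 (0.21), and also under upper-quartile scaling and without BMP7 replicates 3 and 4 (0.13). *Rnd3*, an atypical small GTPase, was at 28.5, 35.0 and 30.8 CPM in Ctrl and 50.1, 58.7 and 53.4 CPM with BMP7 (0.79, SE 0.09; edgeR adjusted p = 7.64e-06). It and *Rras2*, a Ras-family GTPase (0.44), rose. The formin *Fhod1* (-0.59), *Dpysl5*, a collapsin response mediator (-0.59), and *Farp1*, an exchange factor linked to plexin-A (-0.36), fell, with *Dpysl5* not called without BMP7 replicates 3 and 4, at a similar log2 fold change (-0.57). *Arhgap39*, the GTPase-activating protein that binds Robo1, fell (-0.40). *Rgma*, a ligand of neogenin that is also a BMP co-receptor, rose (0.33, SE 0.07; edgeR adjusted p = 0.00673), with its fold under 1.2 without BMP7 replicate 3 (log2 fold change 0.25).

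**Figure D4:**
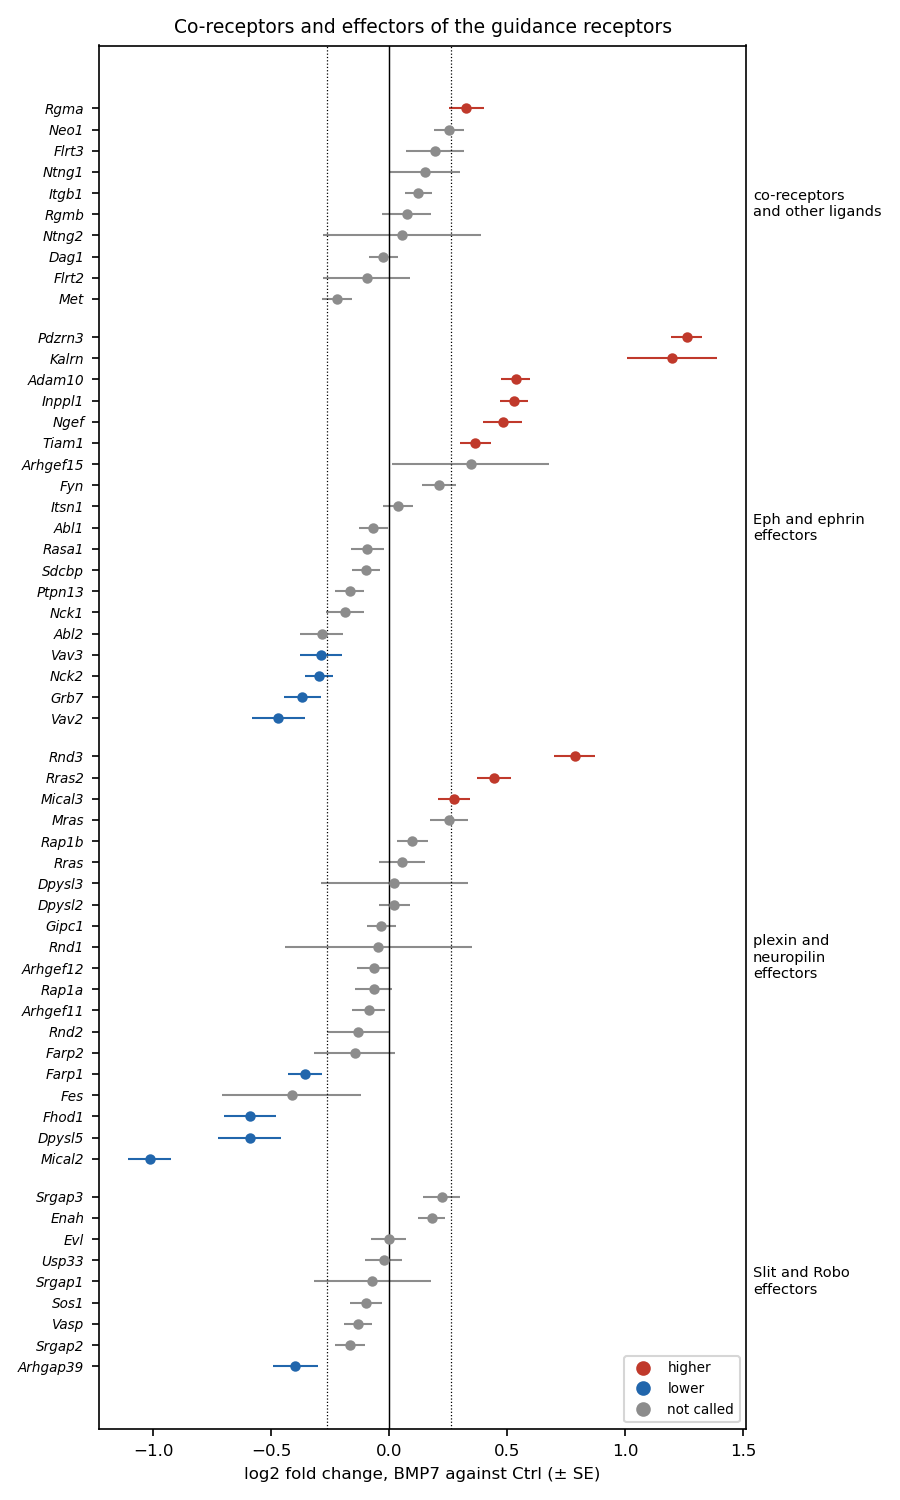
Log2 fold change of BMP7 against Ctrl (x axis) for the 58 tested co-receptor and effector genes, grouped by pathway, with points for the estimate, bars for ± SE, and dotted lines at a fold change of 1.2. Red and blue points are called higher and lower, from *Pdzrn3* at 1.26 to *Mical2* at -1.01, and both colours occur among the Eph and the plexin effectors.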

How the data were processed

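Poly(A) RNA of HC11 cells was sequenced in 3 Ctrl and 3 BMP7 libraries, grouped by the treatment in their labels. The authors aligned read pairs with subjunc and deposited fragment counts per gene from featureCounts, without normalization. The submitters' notes name Subread 2.0.3 and the file header featureCounts 2.0.1. The methods name mm10 and the header an mm39 annotation, and gene coordinates are given as deposited. Strand was not used, and fragments mapping to several places or genes were left out. Libraries held 14607938 to 23748970 fragments, and for genes with few counts counting error limits the precision. The BMP7 columns are numbered 1, 3 and 4, unlike the sample titles, and were matched to their group only.

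Counts were tested in R 4.3.3 with edgeR 4.0.16: expression filter, TMM normalization, and the quasi-likelihood test over 15733 genes with Benjamini-Hochberg adjustment. The thresholds for a call were 0.05 for the adjusted p and 1.2 for the fold change. The common biological coefficient of variation was 0.0696, with 4 residual degrees of freedom. SE was taken as the absolute log2 fold change over the root of F, and intervals are 95% intervals of the log2 fold change for single genes. An exact permutation test of 3 libraries against 3 cannot give a two-sided p under 0.1 and was used only to read overlap. RPKM is CPM per kb of deposited exon length. Alternatives were DESeq2 1.42.0, RLE and upper-quartile scaling, other filters and thresholds, the replicate block and left-out libraries. Scripts were tested on simulated data. Shared exon bases came from the deposited exon positions, and near copies from BLAST 2.17.0 on GENCODE transcripts (95% identity over 100 bases), which among called genes named only the overlapping partners given. Promoter windows are RefSeq's on GRCm38.p6.

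Every guidance gene past the thresholds, tested ones with a mean of at least 1 CPM, and list genes past the thresholds are named. Tested genes below that mean and *Neo1* and *Dcc* were added. The genes and lists were chosen with earlier results of these data known.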

Additional observations from a re-analysis of the deposited data

How the results depend on the processing

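Of the 7 guidance genes that rose and 4 that fell, and the 10 effector genes that rose and 9 that fell, the counts stayed within 1.5 times of these values under RLE scaling, upper-quartile scaling, DESeq2, a test of every gene with a count, a minimum of 10 counts in all libraries, adjusted p alone, the replicate block, and without BMP7 replicates 3 and 4. A fold change threshold of 1.5 moved 3 of them, to 0 guidance genes lower and to 3 effector genes higher and 3 lower, with 5 guidance genes still higher. At this threshold the 0 is by construction, since the largest fall was 1.48-fold, and DESeq2 and edgeR both called 4 guidance genes lower at a fold of 1.2. Leaving out 1 library at a time gave 7 to 8 and 4 to 5 guidance genes, and 8 to 12 and 7 to 11 effector genes. With the replicate block the counts were 7 and 5 guidance genes and 12 and 10 effector genes. Whether the numbers pair the libraries cannot be told, since only 2 numbers occur in both groups and the BMP7 numbers differ from the sample titles. The correlations of deviations from the group means were -0.01 for number 1 and 0.12 for number 3. No called gene changed direction in any alternative run. The depth limits the genes with few counts, such as *Ntn1*, *Plxna2* and *Plxnb3*, whose intervals span more than a doubling.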
